A study of Mus musculus with 38 samples.

Results

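5 of the 21938 protein-coding genes of the GENCODE M21 annotation, Spred2, Clmp, Rxfp3, Grm3 and Galnt18, were chosen by a difference of a single histone mark between IκBα-KO and IκBα-WT mouse embryonic stem cells (mESCs). They were selected on a lower H3K9me3 read density at Spred2, a stretch with H3K4me3 calls in all 3 KO and no WT libraries within Clmp, one with H3K4me3 calls in all 3 WT and no KO libraries at Rxfp3 and at Grm3, and stretches with H3K27me3 calls in all 3 KO and no WT libraries within Galnt18. Elsewhere in Clmp and Galnt18 the same mark was called in every WT library too. The choice left out chromosome 2 from 165 to 171 Mb, chromosome 8 from 40 to 129 Mb and chromosome 12 from 103 to 119 Mb, and it also left out imprinted genes. Values of the choosing mark are therefore descriptions without a test, and tests were kept for the 4 marks at each gene that the choice did not use. Chromatin immunoprecipitation sequencing (ChIP-seq) had been performed for H3K9me3, H3K27me3, H3K4me3, H3K4me1 and H3K27ac in ES-E14TG2a mESCs, which were cultured in serum plus leukaemia inhibitory factor (LIF) and collected at 0 h. In IκBα-KO cells Nfkbia, which encodes the NF-κB inhibitor IκBα, had been targeted in exon 1 by CRISPR/Cas9 with 2 guide RNAs, whereas IκBα-WT cells kept the gene. Each mark had 3 WT and 3 KO libraries, 30 in all, and the study describes 3 independent clones per genotype. The labels do not tie a library to a clone, so that p-values measure the spread between these libraries.

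H3K4me3 is typical of active promoters, H3K27ac of active promoters and enhancers, and H3K4me1 of enhancers in general. H3K27me3 is deposited by Polycomb repressive complex and often shares CpG-rich promoters of silent developmental genes with H3K4me3 in mESCs, while H3K9me3 marks heterochromatin and silenced repeats. Spred2 encodes a Sprouty-related inhibitor of Ras to ERK signalling, Clmp a cell adhesion protein of tight junctions, Rxfp3 the G protein-coupled receptor of relaxin-3, Grm3 a metabotropic glutamate receptor, and Galnt18 a member of the family that starts mucin-type O-glycosylation. The genes lie on different chromosomes of GRCm38: Spred2 at chr11:19924375-20024026 on the plus strand, Clmp at chr9:40685962-40785319 on the plus strand, Rxfp3 at chr15:11033717-11037991, Grm3 at chr5:9485541-9725170 and Galnt18 at chr7:111471661-111779977, the last 3 on the minus strand. The window of a gene is its body with 5 kb on either side, and a call is a stretch that the authors' peak caller reported in 1 library.

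The changed stretches sat in different parts of these genes. At Spred2 the H3K9me3 calls of the 6 libraries merged into chr11:20016201-20027800, 11.6 kb that hold the last coding exons and run 3774 bp past the 3′ end of the gene. At Clmp the KO-restricted H3K4me3 calls spanned chr9:40780625-40783343, 94.7 to 97.4 kb from the 5′ end, where the last coding exons lie and where the noncoding gene Gm16096 is annotated on the opposite strand. At Rxfp3 the WT-restricted H3K4me3 calls spanned chr15:11036076-11037855, of which 1209 of 1780 bp are coding sequence of its single exon. At Grm3 they spanned chr5:9724955-9726261, with 1091 of 1307 bp upstream of the annotated 5′ end. At Galnt18 the widest KO-restricted H3K27me3 stretch was chr7:111652001-111680000, a merged span of 28.0 kb that lies wholly within introns. KO libraries covered 18.6, 21.6 and 17.6 kb of it in 3 calls each, and 9400 bp were called in all 3 KO libraries.

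To show what these stretches are made of, the 300-base window with most CpG was taken from each, within the bases called in all libraries that carried the mark and outside annotated untranslated sequence. CpG dinucleotides are in capitals, and each run is the gene's own strand of the RefSeq copy of GRCm38, 5′ to 3′. The windows are chr11:20020888-20021187 in the last coding exon of Spred2, chr9:40782203-40782502 across the start of the last coding exon of Clmp, chr15:11036962-11037261 in the coding sequence of Rxfp3, chr5:9725801-9726100 upstream of the annotated 5′ end of Grm3, and chr7:111673603-111673902 in an intron of Galnt18.
Spred2: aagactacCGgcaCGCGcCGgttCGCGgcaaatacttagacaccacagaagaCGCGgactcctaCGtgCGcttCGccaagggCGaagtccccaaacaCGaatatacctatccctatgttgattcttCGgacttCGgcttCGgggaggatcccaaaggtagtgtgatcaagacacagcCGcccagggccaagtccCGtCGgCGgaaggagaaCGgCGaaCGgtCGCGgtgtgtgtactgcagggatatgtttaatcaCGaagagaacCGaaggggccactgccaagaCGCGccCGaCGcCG
Clmp: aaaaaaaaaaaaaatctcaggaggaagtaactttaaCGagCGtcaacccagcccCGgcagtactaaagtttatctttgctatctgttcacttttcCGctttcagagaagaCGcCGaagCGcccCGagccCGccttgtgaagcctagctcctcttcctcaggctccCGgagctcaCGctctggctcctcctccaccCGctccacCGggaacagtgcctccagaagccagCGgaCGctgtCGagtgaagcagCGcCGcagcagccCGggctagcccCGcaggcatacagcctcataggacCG
Rxfp3: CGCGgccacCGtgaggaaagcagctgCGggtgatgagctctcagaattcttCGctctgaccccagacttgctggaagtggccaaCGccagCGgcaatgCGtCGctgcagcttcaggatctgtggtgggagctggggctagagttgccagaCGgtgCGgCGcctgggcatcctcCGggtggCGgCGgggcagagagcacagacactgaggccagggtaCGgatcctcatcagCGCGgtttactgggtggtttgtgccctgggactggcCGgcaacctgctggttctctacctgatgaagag
Grm3: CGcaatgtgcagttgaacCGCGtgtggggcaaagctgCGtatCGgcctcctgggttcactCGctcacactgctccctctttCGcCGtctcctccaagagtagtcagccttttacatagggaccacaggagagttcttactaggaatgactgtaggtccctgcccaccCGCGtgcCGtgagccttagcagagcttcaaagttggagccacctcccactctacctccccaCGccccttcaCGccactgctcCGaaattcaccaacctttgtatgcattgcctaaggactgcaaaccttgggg
Galnt18: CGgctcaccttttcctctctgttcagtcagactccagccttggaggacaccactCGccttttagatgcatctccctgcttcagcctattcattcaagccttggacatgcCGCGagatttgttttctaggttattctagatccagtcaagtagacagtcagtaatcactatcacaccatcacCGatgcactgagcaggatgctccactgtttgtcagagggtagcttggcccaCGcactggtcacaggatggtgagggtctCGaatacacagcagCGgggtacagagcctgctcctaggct
These windows hold 32, 21, 19, 14 and 8 CpG in the order printed. Over the whole stretches the ratio of observed to expected CpG was 0.58 at Rxfp3, 0.43 at Grm3, 0.36 at Clmp, 0.34 at Spred2 and 0.15 at Galnt18. The Spred2 window is exonic sequence, and 23.9% of the whole H3K9me3 stretch there was soft-masked as repeats. At Rxfp3 that share was 2.25%.

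The libraries as a whole set the scale for these values. Calls summed over the main chromosomes separated the genotypes in cover for 4 marks. H3K27me3 covered 214 to 259 Mb in WT and 267 to 278 Mb in KO, and H3K27ac 380 to 393 and 411 to 419 Mb. H3K9me3 covered 202 to 207 Mb in WT and 172 to 186 Mb in KO, and H3K4me1 486 to 488 and 476 to 483 Mb. H3K4me3 lists held 21836 to 23638 calls in WT and 23736 to 26806 in KO. The part of this in the cover of single genes was not tested. A library held 8548342 to 12105343 ChIP reads within calls for H3K9me3, 8910890 to 10938375 for H3K27me3, 34736939 to 35951506 for H3K4me1 and 22943091 to 28339766 for H3K27ac, and the H3K4me3 lists held 21836 to 26806 calls without reads. By fold over input the targeted gene separated the genotypes in the 6 H3K4me3 libraries alone: the strongest H3K4me3 call in the Nfkbia window was 13.1, 10.3 and 13.8 times over input in the WT libraries and 3.70, 5.21 and 5.02 times in the KO libraries. At Nfkbia the H3K27ac and H3K4me1 folds overlapped between genotypes, H3K9me3 had no call and H3K27me3 a call only in WT replicate 2, so that the labels of the other 24 libraries were not checked in this way. H3K4me1 covered 12.4 kb of that window in each WT and 12.2 kb in each KO library. Promoters were read from 5000 bp upstream to 100 bp downstream of the annotated 5′ end, so that calls further inside a gene were not counted. In these windows 5 of 8 mESC markers had H3K4me3 calls in all 6 libraries and 7 of 8 had H3K27ac calls. Esrrb had no call of either mark in its window, and its calls further downstream were not read. H3K27me3 was called in all 6 libraries at 1 of 8 mESC promoters and in no library at 6 of 8. Promoters of 4 of 4 primitive endoderm, 2 of 3 trophectoderm, 3 of 4 fibroblast and 4 of 4 neural markers had H3K27me3 calls in all 6 libraries. Marks of active chromatin were called in all 6 libraries at some of them too: H3K27ac at 2 of 4 primitive endoderm, 2 of 3 trophectoderm, 1 of 4 fibroblast and 3 of 4 neural promoters, and H3K4me3 at 0 of 4, 1 of 3, 1 of 4 and 3 of 4 in the same order. The summed cover of a marker list did not overlap between genotypes in 8 of 22 pairs of a list and a mark with a call. No share over other lists of promoters was computed. Among single gene windows with a call, 16.1 to 31.8% did not overlap, depending on the mark. For H3K4me3 those windows were higher in KO at 3717 and lower at 1099 genes. The summed cover of a list was higher in KO only for H3K4me3 at mESC markers, at 3928 to 4429 bp in WT and 6829 to 7783 bp in KO libraries. It was lower in KO for H3K27ac at fibroblast markers, with 7785 to 10202 bp in WT and 3478 to 4002 bp in KO, and for H3K4me3 at trophectoderm markers, with 874 to 1063 bp in WT and 264 to 567 bp in KO. The other 5, all lower in KO, were H3K27me3 at trophectoderm, H3K4me3 and H3K4me1 at fibroblast, H3K27ac at neural and H3K4me1 at mESC markers. The part of these in the results was not tested.

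**Figure D1:**
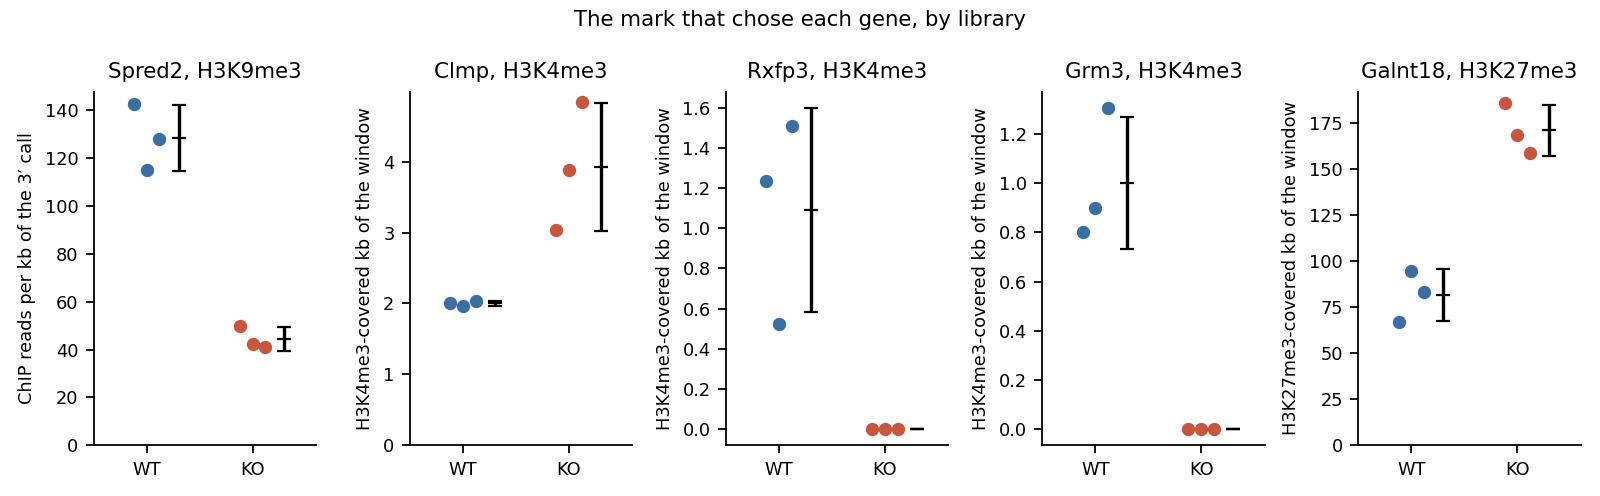
The mark that chose each gene, per library. The y axis is ChIP reads per kb of the 3′ H3K9me3 call for Spred2 and kb of the gene window covered by calls for the other 4 genes; points are libraries, and the black bar and whiskers are the mean and SD of 3 libraries. Rxfp3 and Grm3 stand at 0 in all KO libraries, and KO points lie below WT points at Spred2 and above them at Clmp and Galnt18.

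At Spred2 H3K9me3 did not disappear in KO cells but thinned. The call at the 3′ end was present in all 6 libraries with a similar width, 10.6, 11.2 and 10.4 kb in WT and 10.2, 9.60 and 11.6 kb in KO libraries. It held 143, 115 and 128 ChIP reads per kb in WT libraries against 49.9, 42.2 and 40.9 in KO libraries, while the matching input reads were 24.8 to 25.0 per kb in WT and 28.3 to 28.7 per kb in KO. The KO values were all below the WT values, and the caller's own fold over input of that call, which allows for depth, was 6.69, 6.16 and 7.45 in WT and 2.09, 1.96 and 1.96 in KO libraries.

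Scaled to the H3K9me3 calls of like length in all libraries, the difference was -1.51 on the log2 scale (SE 0.05), a WT level 2.85 times that of KO. This was the widest gap among 3083 such stretches outside the 3 segments left out, and the next was a higher KO level on chromosome X, with a log2 difference of 1.19 (SE 0.16). A shorter H3K9me3 call about 20 kb into the gene had 30.7, 38.5 and 35.7 ChIP reads per kb in WT and 46.4, 28.5 and 41.3 in KO libraries, so that the groups overlapped there. Calls further inside the gene appeared in KO replicate 1 at 82.0 kb and in KO replicate 3 at 72.0 kb from the 5′ end, with 30.3 and 22.4 reads per kb, and in no WT library. The printed exon window lies under the dense 3′ call in every library.

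H3K27ac, a mark of active chromatin, was denser over Spred2 in KO libraries. It covered nearly the whole window, with 105.7, 99.5 and 103.3 kb in WT and 106.7, 104.3 and 104.9 kb in KO libraries, and those values overlapped. Per length its reads rose: CPM (ChIP reads scaled to an equal library total over the tested windows), adjusted to an equal length of calls, were 274, 290 and 284 in WT libraries and 329, 322 and 329 in KO libraries, and all KO libraries lay above all WT libraries. The log2 difference was 0.21 (SE 0.03; adjusted p = 0.00639, edgeR quasi-likelihood test over all genes tested). Without the adjustment for length it fell to 0.13 and missed the threshold (adjusted p = 0.0766, edgeR).

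H3K4me1, a mark of enhancers, covered more of Spred2 in every KO library. It covered 95.9, 95.1 and 101.1 kb of the window in WT libraries and 105.3, 104.9 and 104.9 kb in KO libraries, with no overlap between the groups (exact permutation test, two-sided, p = 0.1, the smallest that 3 against 3 libraries can give). Within the 11.6 kb stretch that carried H3K9me3, H3K4me1 covered 5.00, 4.60 and 4.60 kb in WT and 9.60, 9.20 and 9.40 kb in KO libraries, so that all KO values were above all WT values there too (exact permutation p = 0.1). Its read density over the gene window had a log2 difference of 0.08 (SE 0.02), which did not pass the threshold (adjusted p = 0.0661, edgeR). It passed under 3 alternatives, with a log2 difference of 0.28 without the length offset (adjusted p = 0.00568, edgeR), 0.09 with reads in proportion to the overlap (adjusted p = 0.00782, edgeR) and 0.09 with no flank (adjusted p = 0.0215, edgeR).

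H3K4me3 calls at the Spred2 promoter were strong in all libraries, 9.21 to 17.1 times over input in WT and 11.5 to 13.7 times in KO. Cover of the window was 3907, 4002 and 3876 bp in WT libraries and 4363, 5543 and 6060 bp in KO libraries, and the groups did not overlap (exact permutation p = 0.1). The added KO cover came in part from intronic calls 62 to 65 kb from the 5′ end in KO replicates 2 and 3, which no WT library had, and KO replicate 2 alone had a 301-bp call in the last exon. H3K27me3 was called only in KO replicate 2, over 4.40 kb with 20.0 ChIP reads and 18.9 input reads per kb.

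**Figure D2:**
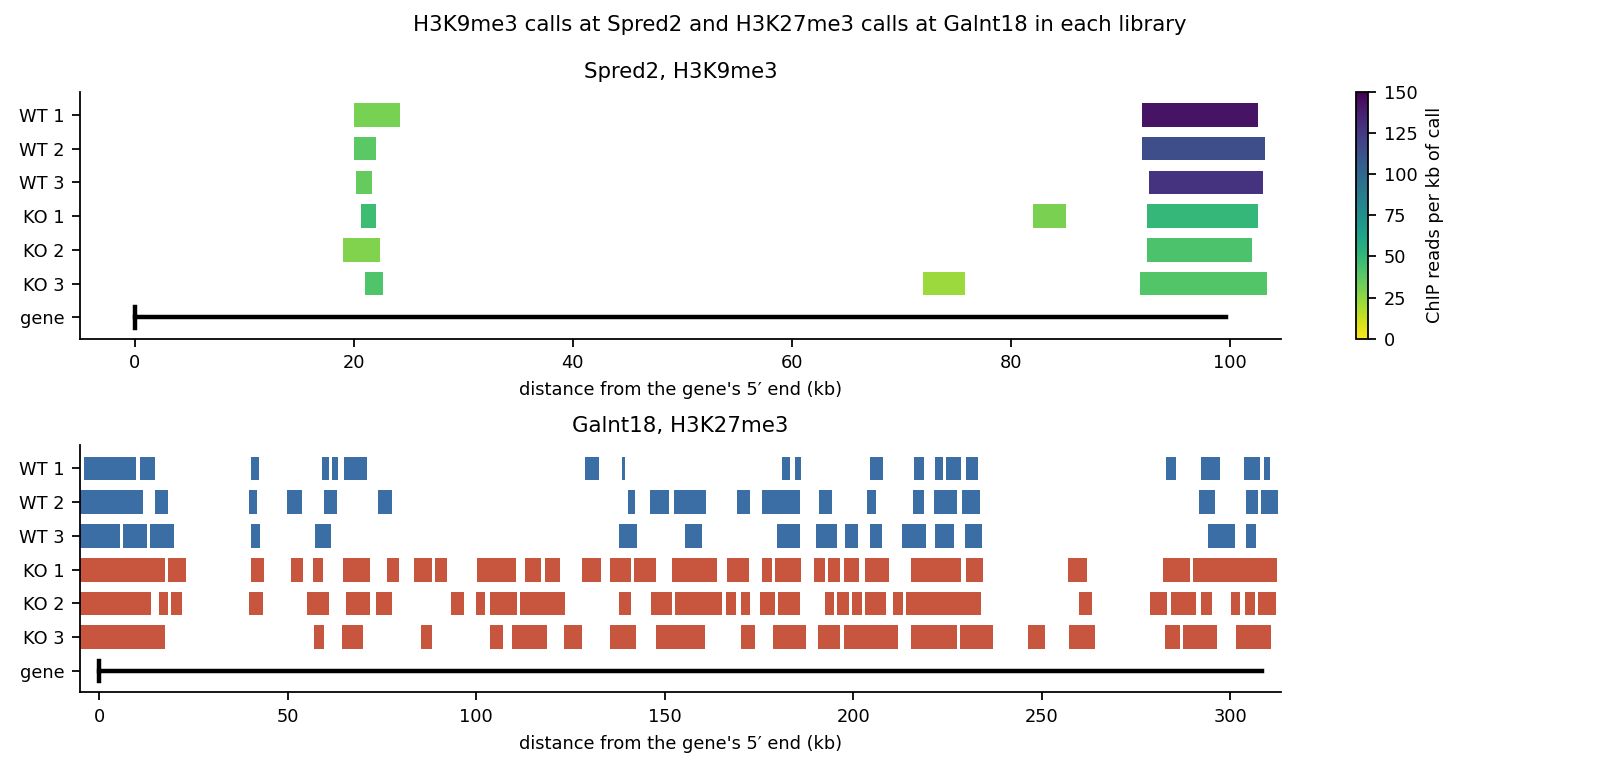
Calls of H3K9me3 at Spred2, coloured by ChIP reads per kb of call, and calls of H3K27me3 at Galnt18 (WT blue, KO red), 1 row per library; the x axis is the distance from the gene's 5′ end in kb, and the black line is the gene. The 3′ call of Spred2 keeps its width in KO rows but is paler, while Galnt18 gains H3K27me3 calls along its length in KO rows.

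At Clmp H3K4me3 appeared at the far end of the gene in KO cells while its promoter call became weaker. In the whole window H3K4me3 covered 2001, 1970 and 2030 bp in WT libraries and 3042, 3876 and 4842 bp in KO libraries, a mean of 2000 ± 30.0 bp (SD, n = 3) against 3920 ± 901 bp. In the KO-restricted stretch the cover was 1842, 2134 and 2405 bp in KO libraries and 0 in WT libraries, and the widest of those calls were 7.81, 7.64 and 6.03 times over input. The KO values exceeded all WT values.

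The promoter call at the 5′ end was 10.1, 11.4 and 16.2 times over input in WT libraries and 8.31, 7.14 and 6.78 times in KO libraries. A further call, at 98.1 to 98.9 kb from the 5′ end and just beyond the start of the antisense gene Gm16096, was present in all 6 libraries, 4.64 to 6.54 times over input in WT and 5.69 to 6.17 times in KO. The gain thus lay between that shared call and the interior of the gene, under the body of Gm16096. Reads from the strands cannot be told apart in ChIP-seq, so the calls belong to the place and not to either gene.

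The KO-restricted H3K4me3 at Clmp lay within chromatin that carried both enhancer marks in all libraries. H3K27ac covered the stretch wholly, with calls of 130, 130 and 151 reads per kb in WT and 156, 142 and 125 in KO libraries, which overlapped. Over the window the log2 difference of H3K27ac was 0.01 (SE 0.05; 95% interval -0.08 to 0.10; adjusted p = 0.911, edgeR).

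H3K4me1 moved the other way to H3K4me3 at Clmp. Its length-adjusted CPM were 122, 118 and 116 in WT libraries and 106, 106 and 112 in KO libraries, and no KO library reached a WT value. The log2 difference was -0.14 (SE 0.04; adjusted p = 0.0385, edgeR), and input reads per kb were 31.2 in WT and 29.0 in KO. The call over the KO-restricted stretch held 90.5, 90.4 and 90.9 reads per kb in WT and 78.6, 77.3 and 80.5 in KO libraries (exact permutation p = 0.1). The call over all genes is a narrow one: the adjusted p was 0.123, 0.0835 and 0.0567 without WT replicates 1, 2 and 3 in turn, and 0.123 and 0.127 without KO replicates 1 and 2 (edgeR), and it was 0.102 with 10 kb on either side of the gene.

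H3K27me3 covered the 5′ part of Clmp in all libraries, 30.2, 47.2 and 44.2 kb in WT and 45.2, 39.6 and 41.6 kb in KO, and did not reach the KO-restricted stretch. The groups overlapped, and the log2 difference in density was 0.08 (SE 0.07; 95% interval -0.06 to 0.23; adjusted p = 0.644, edgeR). H3K9me3 was called only in KO replicate 1, over 2.60 kb. Every library thus had both H3K4me3 and H3K27me3 calls around the 5′ end of Clmp.

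**Figure D3:**
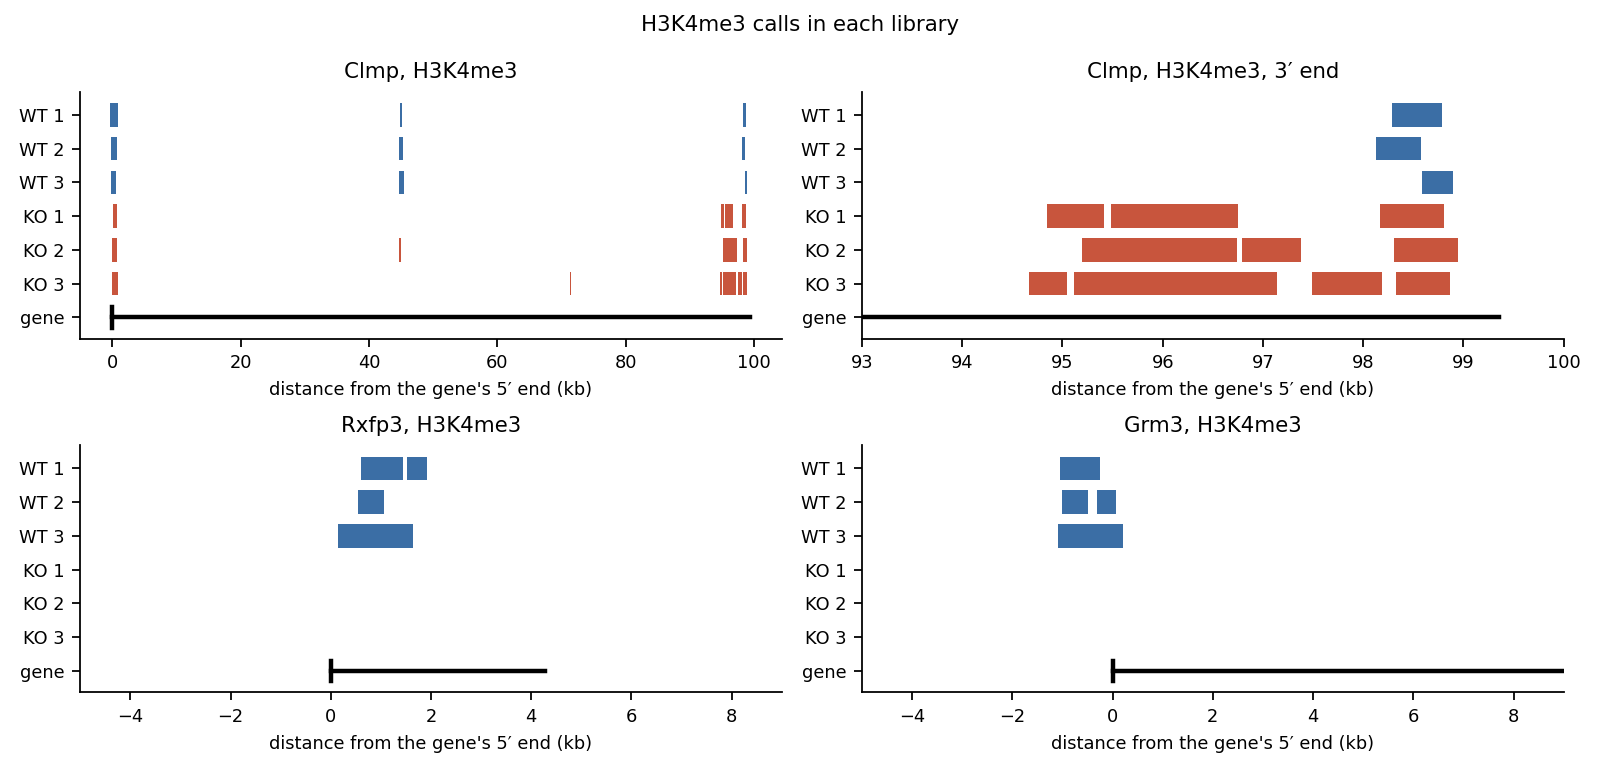
H3K4me3 calls in each WT (blue) and KO (red) library at Clmp, at the 3′ end of Clmp on a wider scale, and at the 5′ ends of Rxfp3 and Grm3; the x axis is the distance from the gene's 5′ end in kb, and the black line is the gene. KO rows alone hold calls 94.7 to 97.4 kb into Clmp, and WT rows alone hold calls at Rxfp3 and Grm3.

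At Rxfp3 the H3K4me3 call over the coding exon was listed in WT libraries only. It covered 1237, 525 and 1511 bp in WT libraries and 0 bp in each KO library, with its strongest calls 8.39, 7.12 and 7.90 times over input. WT replicate 2 had the narrowest cover, and 464 of the 1780 bp were called in all 3 WT libraries. No library had a call upstream of the gene, so that the H3K4me3 lay entirely past the annotated 5′ end.

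Around it H3K27me3, the Polycomb mark, was called in all 6 libraries. It covered 11.9, 14.3 and 14.3 kb of the 14.3 kb window in WT libraries and 14.3, 14.1 and 14.3 kb in KO libraries. Its length-adjusted CPM were 134.3, 129.4 and 109.1 in WT and 116, 116 and 111 in KO libraries, which overlapped, and the log2 difference of -0.12 (SE 0.09; 95% interval -0.29 to 0.05) did not pass the threshold (adjusted p = 0.552, edgeR). The H3K27me3 call over the coding exon held 87.4, 69.4 and 58.4 reads per kb in WT and 62.7, 65.4 and 59.2 in KO libraries (exact permutation p = 0.5).

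H3K4me1 was called over the same exon in all 6 libraries, with 100, 110 and 117 reads per kb in WT and 106, 108 and 107 in KO libraries (exact permutation p = 0.7). Over the window the log2 difference was 0.13 (SE 0.14; 95% interval -0.15 to 0.41; adjusted p = 0.659, edgeR), and it was -0.06 without WT replicate 1, which had a second call. H3K27ac and H3K9me3 had no call in the Rxfp3 window in any library. WT cells thus carried H3K4me3, H3K4me1 and H3K27me3 calls on the exon, and KO cells H3K4me1 and H3K27me3 calls.

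At Grm3 the H3K4me3 call at the 5′ end was likewise listed in WT libraries only. It covered 801, 899 and 1307 bp in WT libraries and 0 bp in each KO library, and its strongest part was 3.22, 7.49 and 6.10 times over input. WT replicate 1 had the weakest call and WT replicate 3 the widest. Counted within the gene body alone the KO minus WT difference was -95.7 bp, against -1002 bp with 5 kb on either side, so that most of the cover lay upstream.

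H3K27me3 covered the same stretch wholly in all 6 libraries, in calls of 54.0, 47.9 and 48.5 reads per kb in WT and 75.7, 58.0 and 44.1 in KO libraries (exact permutation p = 0.5). Over the window H3K27me3 covered 10.0, 13.8 and 12.2 kb in WT and 8.40, 11.8 and 16.2 kb in KO libraries, and the log2 difference in density was 0.08 (SE 0.11; 95% interval -0.14 to 0.30; adjusted p = 0.785, edgeR). The WT values lay within the range of the KO values, both in reads per kb of those calls and in covered kb.

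Both enhancer marks covered less of the Grm3 body in every KO library. H3K4me1 covered 17.6, 18.6 and 17.6 kb in 7 calls per WT library and 11.6, 14.4 and 11.6 kb in 4 or 5 calls per KO library, with no overlap (exact permutation p = 0.1). H3K27ac covered 4.00, 8.40 and 5.20 kb in WT and 3400, 3400 and 3200 bp in KO libraries, again with no overlap (exact permutation p = 0.1). A H3K27ac call about 20 kb into the gene was present in WT replicates 2 and 3 and in no KO library, while a call about 32 kb in was present in all 6.

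Taken over all calls of a library in the window, density did not pass the threshold. In WT libraries these calls include places that had no call in KO libraries. The log2 difference in reads per kb was -0.09 for H3K4me1 (SE 0.06; adjusted p = 0.459, edgeR) and -0.12 for H3K27ac (SE 0.11; adjusted p = 0.541, edgeR). Summed reads without the adjustment for length, which follow both width and density, had log2 differences of -0.58 for H3K4me1 (adjusted p = 0.00554, edgeR) and -1.08 for H3K27ac (adjusted p = 0.0392, edgeR). Input reads per kb under the H3K27ac calls were 29.5 in WT and 33.1 in KO, a log2 ratio 0.24 above the median of all genes, where the SD over genes was 0.11. There is 1 input per genotype, and the part of the input in the narrower calls was not tested.

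H3K9me3 was called at 4 places in the Grm3 window in all 6 libraries, over 12.2, 18.0 and 16.0 kb in WT and 15.2, 12.6 and 13.4 kb in KO libraries. Its log2 difference was 0.00 (SE 0.13; 95% interval -0.25 to 0.26; adjusted p = 0.996, edgeR). The groups overlapped in cover and in density.

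At Galnt18 H3K27me3 lay over much more of the gene in KO libraries. It covered 66.8, 94.4 and 83.2 kb of the window in WT libraries and 186, 168 and 159 kb in KO libraries, a mean of 81.5 ± 13.9 kb (SD, n = 3) against 170.9 ± 13.8 kb. In percent of the window the cover was 20.99 to 29.6 in WT and 49.8 to 58.4 in KO libraries. All KO values were above all WT values, and the KO mean was 2.10 times the WT mean.

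The difference was unequal along the gene, which was cut into 4 parts of equal length. In the part next to the 5′ end, H3K27me3 covered 33.2, 36.2 and 31.9% in WT and 51.5, 49.9 and 33.4% in KO libraries, so that KO replicate 3 stood between the WT values. In the following part the cover was 5.97, 12.04 and 6.49% in WT and 61.6, 46.0 and 44.1% in KO libraries. In the next it was 22.4, 49.4 and 46.5% against 72.8, 76.6 and 70.7%, and in the part at the 3′ end 17.6, 12.8 and 16.5% against 43.4, 34.4 and 47.8%. The gap was widest in the part after the promoter-proximal one, which had the least WT cover and holds the 28.0 kb intronic stretch.

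The KO calls were wider in sum and of similar density. Over the window the calls held 33.3, 28.7 and 29.4 ChIP reads per kb in WT and 28.5, 29.3 and 29.1 in KO libraries, against input reads of 14.8 to 15.4 and 16.7 to 17.1 per kb. The intronic KO-restricted stretch was fainter, with 23.7, 24.0 and 23.1 ChIP reads per kb over 15.2 to 16.2 input reads per kb. The promoter itself carried H3K27me3 in all 6 libraries, over 4124 to 5101 bp in WT and 5101 bp in each KO library.

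Among the marks that the choice had not used, no Galnt18 value passed a test. H3K4me3 covered 661, 600 and 1136 bp near the 5′ end in WT and 321, 914 and 480 bp in KO libraries, which overlapped (exact permutation p = 0.4). H3K4me1 covered 7.20, 7.40 and 6.40 kb in WT and 5.80, 4.60 and 6.60 kb in KO libraries (exact permutation p = 0.2), and its log2 difference in density was -0.07 (SE 0.11; 95% interval -0.28 to 0.14; adjusted p = 0.761, edgeR). H3K27ac was called in WT replicates 2 and 3, over 4.20 and 1.80 kb, and in no other library, and H3K9me3 only in KO replicate 2, over 2.60 kb.

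Of the 20 pairs of a gene and a mark not used to choose it, 18 had a call in at least 1 library, and 4 of these did not overlap in covered bp: H3K4me3 and H3K4me1 at Spred2, both higher in KO, and H3K4me1 and H3K27ac at Grm3, both lower in KO. Over all protein-coding genes with a call the WT and KO libraries did not overlap in 31.8% for H3K4me3, 27.1% for H3K4me1, 29.8% for H3K27ac, 18.5% for H3K27me3 and 16.1% for H3K9me3, and 4 of 18 (22.2%) lies within the range of the background. Among all genes without overlap, KO was higher at 3717 and lower at 1099 for H3K4me3, and at 2052 and 2705 for H3K4me1. The split was 3589 and 1361 for H3K27ac, 1466 and 1022 for H3K27me3, and 576 and 1379 for H3K9me3. Without WT replicate 1 the count of pairs was 8. No background share was computed with that library left out, and fewer libraries overlap less readily at any gene. The adjusted p over the 18 pairs was 0.45 for each of the 4, and no pair could have passed 0.05 with 3 libraries per group.

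12 of the 20 pairs had calls in all 6 libraries and entered the test of read density, and 2 of them passed an adjusted p of 0.05: H3K27ac at Spred2 and H3K4me1 at Clmp. By mark this was 1 of 3 for H3K27ac against 9.35% of all genes tested, 1 of 5 for H3K4me1 against 8.27%, 0 of 3 for H3K27me3 against 1.57% and 0 of 1 for H3K9me3 against 1.09% (edgeR in each case). At an unadjusted p under 0.05 there were likewise none for H3K27me3 and H3K9me3, and DESeq2 called none of those either. Over all genes 1022 of the H3K27ac calls were higher and 346 lower in KO, but 639 were higher and 805 lower without TMM scaling, with a median of all genes at -0.06 on the log2 scale. For H3K4me1 the split was 937 and 443, or 770 and 752 without it.

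**Figure D4:**
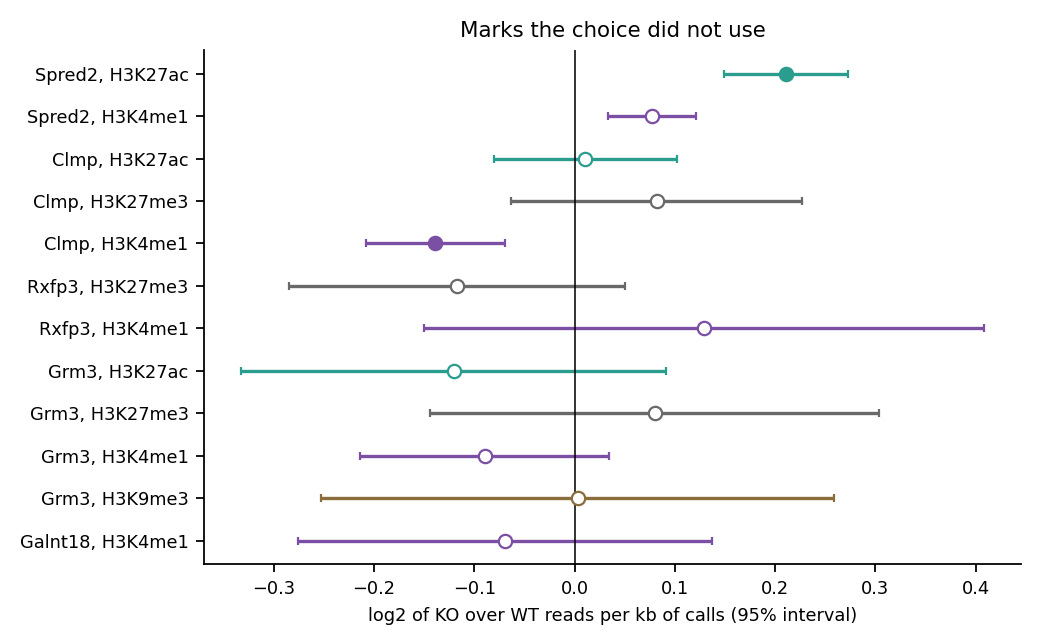
Log2 difference in reads per kb of calls (KO over WT) on the x axis for the 12 pairs of a gene and a mark that the choice did not use and that had calls in all 6 libraries; points are edgeR estimates, whiskers their 95% intervals, and filled points passed an adjusted p of 0.05. H3K27ac at Spred2 lies at 0.21 and H3K4me1 at Clmp at -0.14, and 10 of the points are open.

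The choice of these genes also leaves near neighbours on the other side of its limits. Of 866 KO-restricted H3K4me3 stretches outside the segments, that at Clmp was second by summed cover, with 6381 bp, behind the imprinted gene Mest with 6977 bp and ahead of Ccnd3, which encodes cyclin D3, with 5355 bp. Of 217 WT-restricted stretches, Rxfp3 and Grm3 were first and second with 3273 and 3007 bp, and AI593442 followed with 2730 bp. Of 813 KO-restricted H3K27me3 stretches, Galnt18 had 57800 bp and Cd244a, an immune cell receptor gene, came next with 44600 bp. No stretch that chose a gene lay in the window of another protein-coding gene.

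Relatives of the chosen genes were read in the same mark. Of 46 relatives in 5 lists, 37 had a call, and 13 of these did not overlap between genotypes, 9 higher and 4 lower in KO. The background is the share and the split of directions given above for each mark. Without WT replicate 3 the count of relatives was 21, and no background share was computed with that library left out.

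Of these lists the GalNAc transferases had the most genes without overlap. All 18 relatives of Galnt18 had a call, and 7 did not overlap, 5 higher and 2 lower in KO, where 18.5% of all genes did not overlap. The median difference was 2633 bp, against 186 bp over all genes with a call. Neither value is scaled to the cover of a gene, which had a median of 6784 bp over all genes with a call. The list includes 3 genes of the segments left out. Of the 5 higher relatives, Galnt2 and Galntl6 lie in the segment left out on chromosome 8. Input reads per kb of H3K27me3 calls in that segment were 20.1 to 20.4 in WT and 26.6 to 26.9 in KO libraries, against 17.0 to 17.1 and 19.0 to 19.1 outside the segments, and the part of this difference in the cover was not tested. Galnt2 had 4.01, 2.80 and 6.60 kb in WT and 8.61, 8.81 and 7.81 kb in KO libraries. Galntl6 had 41.0, 70.4 and 52.6 kb in WT and 230, 179 and 226 kb in KO libraries.

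Galnt14 had 29.9, 47.0 and 46.5 kb in WT and 94.4, 92.2 and 92.2 kb in KO libraries, and Galnt17 had 58.4, 64.4 and 56.3 kb in WT and 90.2, 80.1 and 79.7 kb in KO libraries. In Galnt14 and Galnt17, as in Galnt2 and Galntl6, every KO library had more cover than every WT library. The relatives in which every KO library had less cover than every WT library were Galnt4 and Galnt1. Galnt1 had 3.88, 5.26 and 7.66 kb in WT and 2.06, 1.26 and 2.26 kb in KO libraries. Galnt16, with the highest WT cover among relatives, had 57.0, 65.7 and 67.1 kb in WT and 63.9, 66.6 and 59.8 kb in KO libraries, which overlapped.

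Of 9 adhesion proteins of the same structural type as Clmp, 8 had H3K4me3 calls and 4 did not overlap, all higher in KO, where 31.8% of all genes did not overlap. That direction was also the more common one over all genes, with 3717 higher and 1099 lower in KO. Gpa33, an intestinal surface antigen, had 3130, 2337 and 4934 bp in WT and 6143, 7889 and 6574 bp in KO libraries. Jam2, a junctional adhesion molecule, had 2476, 2153 and 2313 bp in WT and 3701, 5340 and 5011 bp in KO libraries. Esam, the endothelial member, had 0, 773 and 1082 bp in WT and 1379, 1353 and 2759 bp in KO libraries. The median difference of the list was 740 bp, against 113 bp over all genes with an H3K4me3 call. Neither value is scaled to the cover of a gene, which had a median of 1430 bp over those genes.

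Of 7 relatives of Grm3, all with H3K4me3 calls, 2 did not overlap and both were lower in KO, where 31.8% of all genes did not overlap. Grm8 had 1801, 1413 and 1823 bp in WT and 1331, 1236 and 1156 bp in KO libraries, and Grm6 had 1046, 980 and 1156 bp in WT and 688, 915 and 854 bp in KO libraries. Of 7 relaxin receptors and ligands other than Rxfp3, 3 had a call and none was without overlap. Of 5 Spred and Sprouty genes other than Spred2, Spry4 alone had H3K9me3 calls, in WT replicate 1 and KO replicate 3, so that the dense 3′ call of Spred2 had no counterpart in that list.

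**Figure D5:**
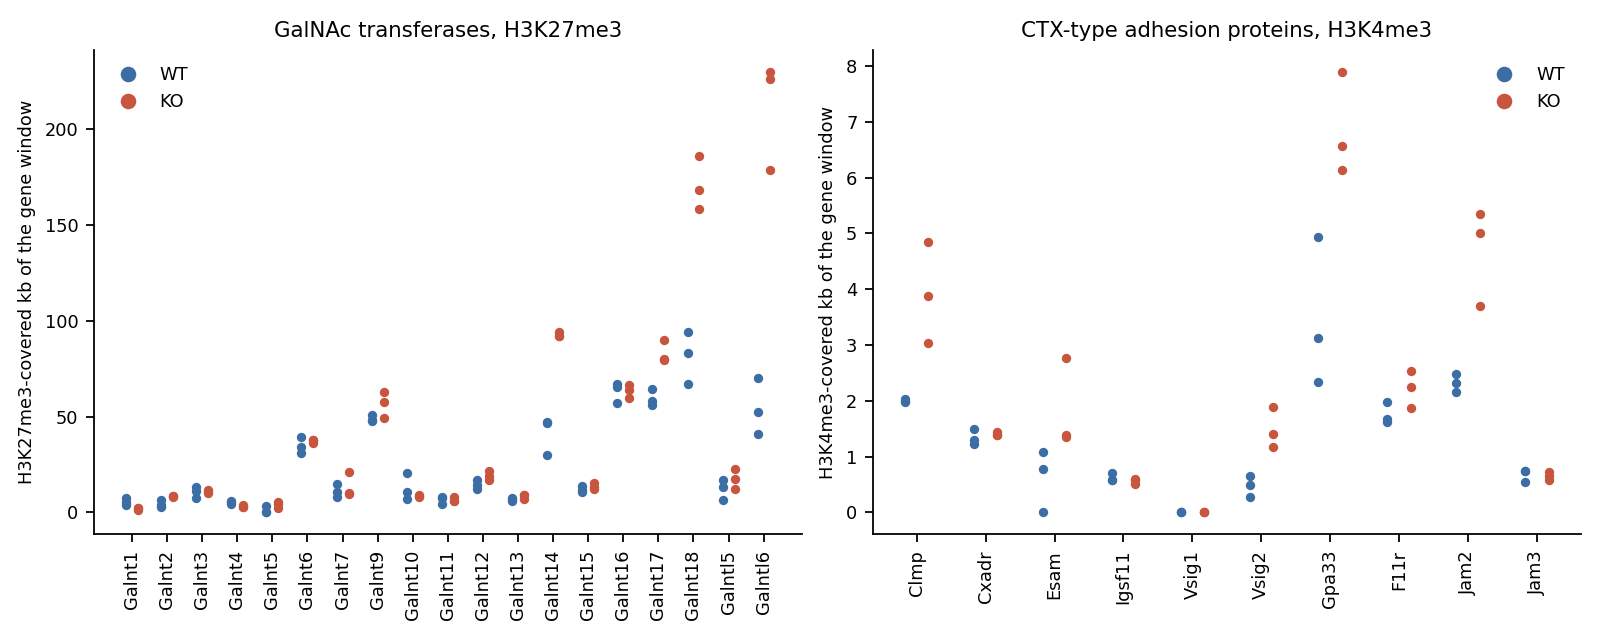
Covered kb of the gene window per library (WT blue, KO red) for H3K27me3 at the GalNAc transferases and for H3K4me3 at adhesion proteins of the Clmp type. KO points of Galnt14, Galnt17, Galnt18 and Galntl6 lie above their WT points on the left, and those of Clmp, Esam, Vsig2, Gpa33 and Jam2 on the right.

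Over the 30 libraries, the share of the window covered by each mark was compared with that of other protein-coding genes. Genes in the 3 segments left out, and genes with an overlapping window, did not enter. The comparison is a description over libraries that share marks and cells. Galnt18 was most like its relative Galnt14 (Pearson's r = 0.996) and Fer1l6 (r = 0.995), where H3K27me3 covered 22.8% in WT and 40.4% in KO on average. Rxfp3 was most like Lingo4 (r = 0.996) and the muscle regulator Myod1 (r = 0.995), and at Myod1 H3K4me3 covered 4.46% in WT and 0.607% in KO, beside H3K27me3 over 95.3 and 98.2%. At Lingo4 H3K4me3 covered 0% in both genotypes. Clmp was most like Nfic (r = 0.993) and Celf5 (r = 0.991), Spred2 most like Tmeff1 and B4galt6 (r = 0.998 for both), and Grm3, with the least likeness, most like Jph1 (r = 0.888) and Rbms3 (r = 0.885). At Jph1 the H3K27ac cover was 6.05% in WT and 0 in KO libraries, and that of H3K4me1 12.6 and 5.54%. H3K4me3 there covered 0.980% in WT and 1.01% in KO. At Rbms3 the H3K27ac cover was 2.46% in WT and 2.77% in KO, and that of H3K4me1 5.40 and 5.03%. H3K9me3 covered 13.2% in WT and 18.2% in KO at Tmeff1, and 5.66 and 11.1% at B4galt6. H3K4me3 covered 4.47% in WT and 4.74% in KO at Nfic, and 5.62 and 6.17% at Celf5.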

How the data were processed

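The study's methods state that the authors trimmed reads (Trim Galore 0.6.6), aligned them to GRCm38 (Bowtie2 2.4.4), removed multimapping, low-quality and blacklisted reads and called each library against the input of its genotype. The aligner of H3K27ac and the processing of H3K9me3 are not given in the sources used here. For H3K4me3 the authors deposited MACS2 2.2.7.1 peaks with a score, a fold enrichment ratio over input, and p-values and q-values as −log10. For the other marks the deposited epic2 0.0.52 lists give counts of ChIP and input reads, a p-value, an FDR, a log2 fold over input and a score for each called region. Per the labels H3K27ac and H3K4me1 share an antibody, whereas the methods list a separate one for H3K27ac, and marks are given here as labelled. Counts exist only inside calls, and a wider call holds more reads, so that a place without a call can hold reads below the caller's threshold. Intervals and tests cover the spread between libraries, and reads are not independent molecules.

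Calls on the main chromosomes were overlapped with gene bodies plus 5 kb, and covered bp were compared by an exact permutation test (two-sided, 20 assignments of libraries). Reads of whole calls overlapping a window were tested with edgeR 4.0.16 in R 4.3.3 (quasi-likelihood, TMM, summed call length as offset, Benjamini-Hochberg adjustment over all protein-coding genes with a call in all 6 libraries of the mark); SE is the log2 difference over the square root of F. The test was also run on simulated counts with the same dispersion at every gene, which does not show how it performs on these calls. The genes named were the 5 members, Nfkbia, up to 3 relatives per list with the largest non-overlapping difference, the 2 genes most alike in pattern and the next in rank; other relatives and the places inside genes were chosen after their values were seen. Values of a further relative are not reported here. Members and lists were chosen with earlier results of these data known. Alternatives were other flanks, stricter calls, equal numbers of calls, other scalings, DESeq2 1.42.0 and leaving out each library, and values in the choosing stretch were added after seeing the data. Python 3.11.15 with numpy 2.4.6 and pandas 2.3.3 handled intervals.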

Additional observations from a re-analysis of the deposited data

How the results depend on the processing

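Of 335 alternative values, 289 kept their direction and their side of the threshold, moved by less than the spread between libraries or, for counts, changed by less than a set factor. Changes from 4 to 6 pairs and from 13 to 17 relatives, for instance, were among the 289. The count of pairs without overlap in covered bp, 4, ranged from 4 to 8 when a library was left out and was 1 in the stretch that chose each gene, an alternative chosen after seeing the data. The count of pairs called by edgeR, 2, was 4 without the length offset, 1 with 10 kb on either side, and 1 to 2 when a library was left out. The count of relatives without overlap, 13, ranged from 14 to 21 when a library was left out. Background shares of overlap were not computed with a library left out. Same-numbered WT and KO libraries did not deviate together (correlations of -0.02 to 0.03), so that the numbers were not taken to pair the libraries. With a replicate block the count of pairs called by edgeR was 1, since H3K4me1 at Clmp had an adjusted p of 0.0715 (edgeR), and over all genes there were 96 calls with the block against 153 for H3K27me3, 9 against 67 for H3K9me3, 795 against 1368 for H3K27ac and 1181 against 1380 for H3K4me1. DESeq2 made 343, 136, 1833 and 1547 calls in the same order, and no length offset 1059, 409, 2391 and 3011. The cause of these differences was not tested.

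Among tested log2 differences, signs turned only for those that had not passed the threshold. H3K27me3 at Galnt18, the mark that chose the gene and so not tested, went from -0.07 per kb of calls to 0.93 without the length offset, where wider calls count as more reads. Without the length offset H3K27me3 at Rxfp3 was 0.10 and at Grm3 -0.031, H3K9me3 at Grm3 -0.036, H3K27ac at Clmp -0.12 and H3K4me1 at Rxfp3 -0.18. H3K27ac at Clmp was also -0.047 without TMM and -0.10 at an FDR under 0.01, and H3K9me3 at Grm3 was -0.00089 with no flank and -0.00017 at an FDR under 0.01. Leaving out a library gave H3K27me3 at Grm3 -0.049 to 0.18, H3K9me3 at Grm3 -0.074 to 0.15, H3K27ac at Clmp -0.018 to 0.051, H3K4me1 at Rxfp3 -0.058 to 0.25 and H3K4me1 at Galnt18 -0.12 to 0.027. Depth limits what is seen: H3K4me3 has no counts, and a stretch without a call has no value.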
